A study of Sus scrofa with 12 samples.

Results

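The 5 genes described here, CDH5, EMCN, ABCB1, VEGFC and MYL9, are genes of the vessel wall, measured in the hypothalamus of 12 pigs (Sus scrofa). They were chosen by name, and their members are all probe sets whose platform annotation gives 1 of these symbols. That rule found 12 probe sets among the 47845 rows of the array: 3 for CDH5, 2 for EMCN, 2 for ABCB1, 1 for VEGFC and 4 for MYL9. Of these 12, 10 passed the filter on dim signals and were tested, among 35791 probe sets in all, and each gene kept at least 1. The second probe sets of EMCN and ABCB1 fell below the filter.

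The tissue came from 6 pigs of low feed efficiency and 6 pigs of high feed efficiency, and all 12 were 140 days old. Each group held 3 females and 3 males, and each pig gave 1 Affymetrix Snowball array. The labels name no breed difference, diet change or drug between the groups. The sources used here do not say whether males were castrated, which litters the pigs came from or how arrays were batched. Within each group, pigs 1 to 3 were males and pigs 4 to 6 were females. The pig identifiers fell into a lower run of 8 pigs, which held all males and 2 females, and a higher run of 4 females, so sex was partly tied to the run.

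The wall of a brain capillary is a single layer of endothelial cells, sealed to each other by tight and adherens junctions and covered by pericytes that share its basement membrane. This layer is the blood-brain barrier: its transporters carry nutrients in and pump many drugs and lipids out. Arterioles are wrapped in smooth muscle cells, which contract when the regulatory light chain of myosin is phosphorylated. In parts of the hypothalamus, such as the median eminence, capillaries are fenestrated and let hormones and metabolic signals pass.

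Each of the 5 genes marks a different feature of that wall. CDH5 encodes VE-cadherin, the adhesion molecule of endothelial adherens junctions. EMCN encodes endomucin, a sialoglycoprotein on the surface of endothelial cells, known mainly from veins and capillaries. ABCB1 encodes P-glycoprotein, an efflux pump on the blood side of the brain endothelium. VEGFC encodes a secreted growth factor that acts through the receptors VEGFR-3 (FLT4) and VEGFR-2 (KDR) and is best known for driving the growth of lymphatic vessels. MYL9 encodes a regulatory light chain of myosin that is abundant in smooth muscle and other contractile cells.

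Values are log2 signals. A difference of 1 on this scale is a doubling. Hypothalamic neuropeptide genes were bright in every pig, which fits the labelled tissue: AVP, the vasopressin precursor, had a lowest value of 11.05, a median of 11.58 and a highest of 11.95 over the 12 pigs, and OXT, the oxytocin precursor, had 11.29, 11.91 and 12.31. PMCH and HCRT, which mark the lateral hypothalamus, had medians of 8.11 and 8.32. The brightest of the listed endothelial genes, CLDN5, FLT1 and ENG, averaged 7.68, 7.84 and 7.36. The brightest of the listed pericyte genes, RGS5, averaged 8.87. These were picked for their high signal, and all other genes on the 2 lists gave lower signals. The array's 69 background probe sets had means between 1.30 and 7.49, with a median of 2.35. Signals of different probe sets depend on their probes, so no level of one gene is set against another's.

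No probe set of the 5 genes was called for feed efficiency. At an adjusted p under 0.05 (limma, Benjamini-Hochberg over all 35791 probe sets, with sex in the model), 0 of the 10 tested member probe sets were called, against a background of 0% for the whole array. The smallest adjusted p over the array was 0.714. At an unadjusted p under 0.05, 2 of the 10 were higher in the low group, 1 of VEGFC and 1 of EMCN, where the background share higher in the low group was 2.99% of probe sets. None of the 10 was lower at that threshold, where the background share was 3.16%. No member had groups that did not overlap, against 0.282% of all tested probe sets.

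**Figure D1:**
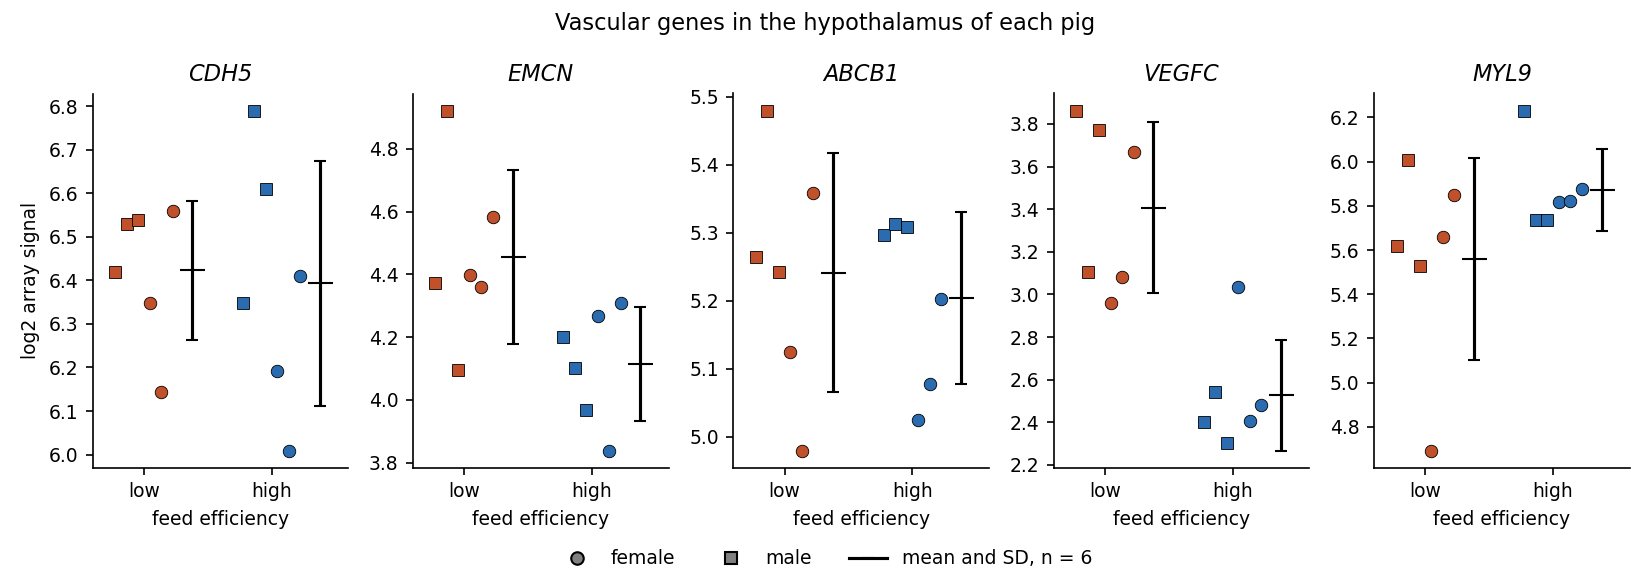
Log2 signal of each gene's brightest probe set in each of the 12 pigs, low feed efficiency left of high feed efficiency, with females and males marked and the group mean and SD drawn. VEGFC averaged 3.41 in the low and 2.53 in the high group, EMCN 4.46 and 4.11, while CDH5 averaged 6.42 and 6.39.

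VE-cadherin's gene CDH5 had nearly the same level in both groups. In the low group its brightest probe set had 6.42, 6.53, 6.54, 6.35, 6.14 and 6.56 in pigs 1 to 6. In the high group it had 6.35, 6.79, 6.61, 6.19, 6.01 and 6.41. The high group spread further, from 6.01 to 6.79, and enclosed all 6 low pigs. Its mean was 6.42 ± 0.16 in the low group and 6.39 ± 0.28 in the high group (SD, n = 6 each). The difference of low minus high was 0.03 ± 0.11 (SE), with a 95% interval of -0.21 to 0.27 and an adjusted p of 0.972 in limma. As a fold this is 1.02, with an interval of 0.866 to 1.20. The other CDH5 probe sets, with means of 6.27 and 6.09, differed by 0.01 ± 0.08 and -0.04 ± 0.12 (SE).

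ABCB1, the efflux pump, was equally level. The low pigs had 5.26, 5.48, 5.24, 5.12, 4.98 and 5.36. The high pigs had 5.30, 5.31, 5.31, 5.02, 5.08 and 5.20. Both the highest and the lowest of the 12 values were in the low group. The means were 5.24 ± 0.18 in the low group and 5.20 ± 0.13 in the high group (SD, n = 6 each). Low minus high was 0.04 ± 0.08 (SE), with a 95% interval of -0.14 to 0.21 and an adjusted p of 0.945. The dim second probe set of ABCB1 was below the filter, with a mean of 2.24 and a difference of 0.17 ± 0.18 (SE). Its signal was close to that of the background probe sets.

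Endomucin's gene EMCN was higher in the low group before the adjustment for many tests only. Its brighter probe set had 4.37, 4.92, 4.09, 4.40, 4.36 and 4.58 in the low pigs. In the high pigs it had 4.20, 4.10, 3.97, 4.27, 3.84 and 4.31. Of the low pigs, 5 of 6 lay above the mean of the high group, and low pig 3 lay among the high pigs. The mean was 4.46 ± 0.28 in the low group and 4.11 ± 0.18 in the high group (SD, n = 6 each), and low minus high was 0.34 ± 0.14 (SE), with a 95% interval of 0.04 to 0.64. As a fold this was 1.27, with an interval of 1.03 to 1.56. The unadjusted p was 0.0281 and the adjusted p was 0.796 in limma, and an exact two-sided permutation of the groups within each sex gave p = 0.03, from 12 of 400 arrangements.

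The EMCN difference had the same sign in each subset of pigs and not in its second probe set. It was 0.31 ± 0.20 in females and 0.37 ± 0.20 in males (SE). In the lower run of identifiers it was 0.31 and in the higher run 0.40. Leaving out each pig in turn gave 0.24 to 0.42, with the lowest value without low pig 2, the pig with the highest signal of 4.92. The unadjusted p was then 0.05 or more in 4 of the 12 fits, without low pig 2, low pig 6, high pig 3 or high pig 5, and reached 0.068. The second EMCN probe set, with a mean of 2.37 below the filter limit of 2.43, differed by -0.12 ± 0.10 (SE), and over the 12 pigs its values had a Pearson r of -0.143 with those of the first.

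The largest difference among the 5 genes was that of VEGFC, and it did not pass the test. VEGFC is carried by 1 probe set with a mean of 2.97, above the median of the background probe sets and within their range. The low pigs had 3.86, 3.11, 3.77, 2.96, 3.08 and 3.67. The high pigs had 2.40, 2.54, 2.30, 3.03, 2.40 and 2.48. All 6 low pigs were above the high mean, and the groups overlapped only through low pig 4 at 2.96 and high pig 4 at 3.03, both females of the lower run.

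VEGFC averaged 3.41 ± 0.40 in the low group and 2.53 ± 0.26 in the high group (SD, n = 6 each). Low minus high was 0.88 ± 0.19 (SE), with a 95% interval of 0.47 to 1.29. No fold is given, since the mean of the high group lay near the background median of 2.35. The unadjusted p of 0.000572 placed it 25th among 35791 probe sets, and the adjusted p was 0.714. An exact two-sided permutation within sex gave p = 0.01, from 4 of 400 arrangements, where the smallest p that this design allows is 0.005. Leaving out each pig in turn gave differences of 0.79 to 1.00, with adjusted p between 0.516 and 0.966. No second VEGFC probe set was there to compare. In bulk tissue, fewer cells of a type and less RNA per cell cannot be told apart.

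By sex, the VEGFC difference was 0.60 ± 0.25 in females and 1.16 ± 0.25 in males (SE). The 3 low males had 3.11 to 3.86 and the 3 high males 2.30 to 2.54, without overlap, as in 14.3% of all tested probe sets, and the adjusted p within males was 0.298 in limma. The interaction of group and sex was -0.57 ± 0.35 (SE) with an adjusted p of 0.859, so the 2 sexes were not shown to differ. No probe set of the array, 0%, was called for that interaction. Within the lower run the difference was 0.85 and within the higher run 0.93.

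MYL9, the light chain of contractile cells, was lower in the low group by its brightest probe set, by less than the spread between pigs allows to call. The low pigs had 5.62, 6.01, 5.53, 4.69, 5.66 and 5.85. The high pigs had 6.23, 5.74, 5.74, 5.82, 5.82 and 5.88. Low pig 4 at 4.69 stood apart from the other low pigs, which began at 5.53, and high pig 1 at 6.23 stood above the other high pigs. The means were 5.56 ± 0.46 in the low group and 5.87 ± 0.19 in the high group (SD, n = 6 each). Low minus high was -0.31 ± 0.19 (SE), with a 95% interval of -0.72 to 0.10 and an adjusted p of 0.819. Without low pig 4 the difference was -0.14.

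The 2 other bright MYL9 probe sets, with means of 5.10 and 5.08, differed by -0.01 ± 0.24 and -0.01 ± 0.33 (SE). The last, with a mean of 2.54, lay near background and bears little on it, at -0.03 ± 0.11 (SE). The mean of the tested probe sets differed by -0.09. Over the 12 pigs the 4 probe sets had pairwise r between -0.46 and 0.07, so they did not rank the pigs alike. By Affymetrix naming, the suffix of the 3 brighter probe sets marks probes that match several transcripts. MYL12A and MYL12B encode near-identical light chains, so the signal called MYL9 may hold theirs. The 3 CDH5 probe sets carry the same suffix, so the signal called CDH5 may also hold other transcripts.

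**Figure D2:**
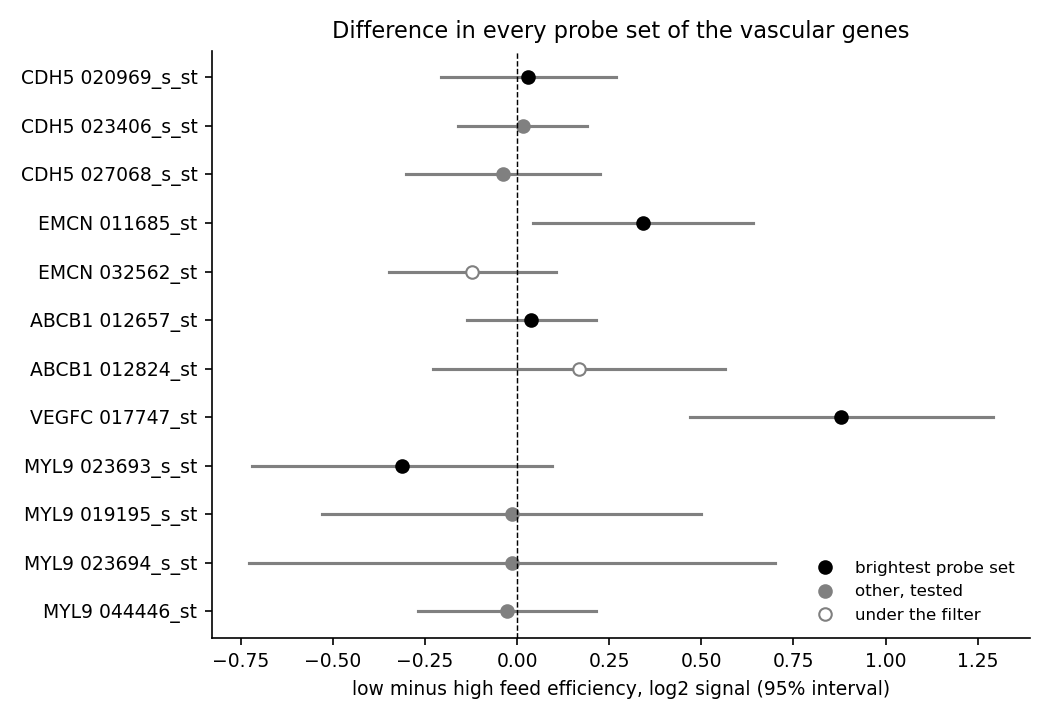
Low minus high feed efficiency difference in log2 signal for each of the 12 probe sets of the 5 genes, with its 95% interval. VEGFC at 0.88 and the brighter EMCN probe set at 0.34 have intervals above 0, and the intervals of the other probe sets include 0.

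By sex, 4 of the 5 genes had lower means in females than in males, all but EMCN, and none passed the test. Over all 12609 tested genes, 5944 were lower in females. CDH5 and ABCB1 had an unadjusted p under 0.05. CDH5 averaged 6.28 ± 0.20 in females and 6.54 ± 0.15 in males (SD, n = 6 each). Female minus male was -0.26 ± 0.11 (SE), with an unadjusted p of 0.0334 and an adjusted p of 0.996 in limma. ABCB1 averaged 5.13 ± 0.14 in females and 5.32 ± 0.08 in males, a difference of -0.19 ± 0.08 (SE) with an unadjusted p of 0.0363 and an adjusted p of 0.996. The second CDH5 probe set differed by -0.20 ± 0.08 and the third by -0.003 ± 0.12 (SE). In all, 3 of the 10 tested member probe sets were lower in females at an unadjusted p under 0.05, where the background share was 2.34%, and none was higher in females, where it was 2.4%. The 3 were the brightest and second probe sets of CDH5 and the brighter one of ABCB1. These CDH5 probe sets had an r of 0.593 with each other, and 0.774 and 0.819 with ABCB1. The 3 are therefore not separate observations. Of the array, 8 probe sets (0.0224%) were called after adjustment, none of them a member. For EMCN, VEGFC and MYL9 the differences of female minus male were 0.02, -0.06 and -0.19. All 4 pigs of the higher run were female, so run and sex cannot be fully told apart here.

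Whether vessel genes moved together from pig to pig, as a measure of vessel content would need, was asked by setting them against each other. Each gene's brightest probe set was set against each of the others and against the mean of 19 endothelial genes and the mean of 23 pericyte and smooth muscle genes, which made 20 relations over 12 pigs. None passed an adjusted p under 0.05 by permutation. Both means averaged log2 signals without scaling, so genes that varied more between pigs weighed more. Among the 19, FLI1 had an SD of 1.56 in the low and 0.78 in the high group, against 0.10 and 0.07 for ENG. Among the 23, VTN had 0.79 and 1.00. How far the r with these means rest on such genes was not tested. The 10 pairs among the 5 genes had a median r of 0.15.

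The highest of the 20 was CDH5 with ABCB1, both carried by endothelial cells. Pearson's r was 0.774 (permutation p = 0.003, adjusted p = 0.068) and Spearman's rho was 0.797 (adjusted p = 0.058). Without high pigs 2 and 5, the 2 farthest from the CDH5 median, r was 0.846. It was 0.884 within the low group and 0.825 within the high group, and 0.642 in the 8 pigs of the lower run. By sex, r was 0.853 in females and 0.108 in males (n = 6 each), so the relation did not hold within males, and the difference of the 2 values was not tested. With the means of group and sex removed it was 0.623, with an adjusted p of 0.202. Leaving out each pig in turn gave adjusted p from 0.034 to 0.166. It was under 0.05 only without low pig 2, at 0.034, and without high pig 2, at 0.047.

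Probe sets of one gene gave unequal answers here too. The CDH5 probe set of mean 6.27 had an r of 0.819 with ABCB1 and the dimmest, of mean 6.09, 0.0851, while the dimmest had the higher r with the endothelial mean, 0.773, against 0.638 for the brightest and 0.352 for the remaining one. The 3 CDH5 probe sets had r of 0.593, 0.332 and 0.065 with each other. ABCB1 ranked above 99.8% of the 12608 other genes in its r with CDH5.

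**Figure D3:**
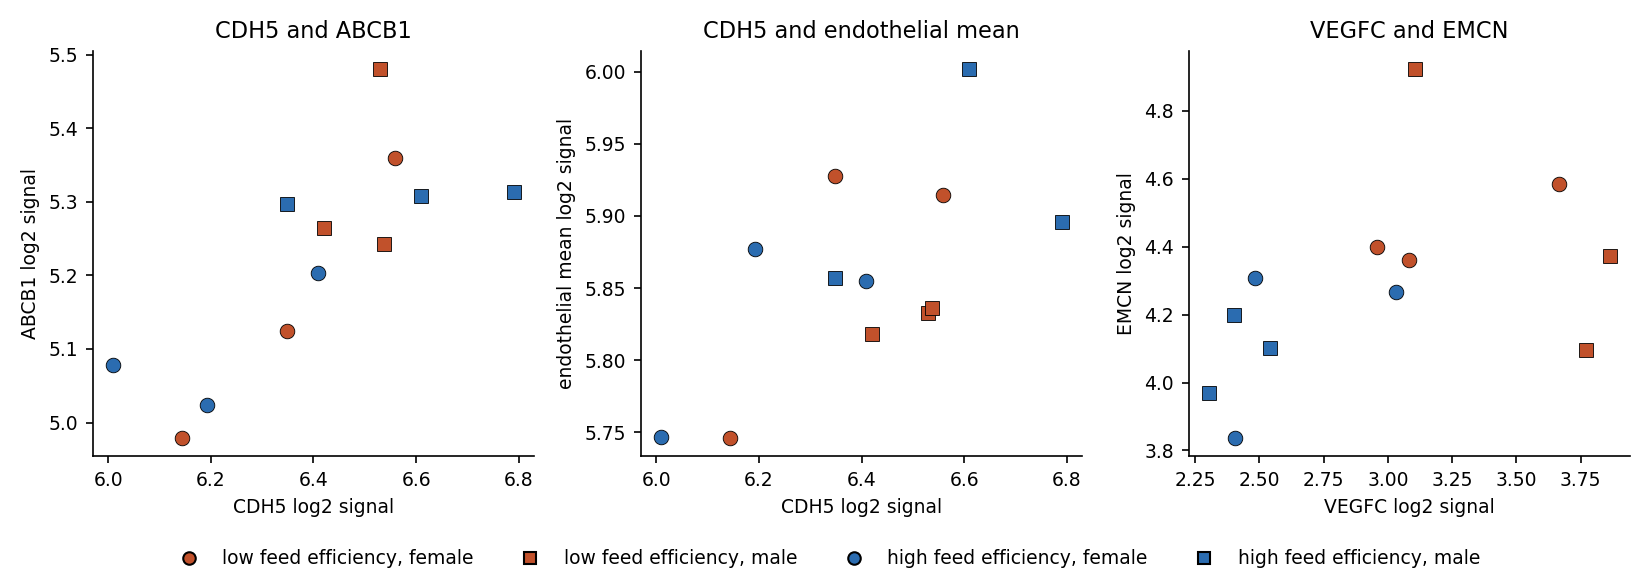
Each point is 1 pig, marked by group and sex. The panels show CDH5 with ABCB1, CDH5 with the endothelial mean, and VEGFC with EMCN. In each, the first named is on the horizontal axis, and both axes are log2 signals. The ABCB1 points follow CDH5 with r = 0.774 over 12 pigs, while r is 0.853 among females and 0.108 among males.

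CDH5 with the endothelial mean had r = 0.638 (permutation p = 0.024, adjusted p = 0.240) and rho = 0.546. Without high pigs 2 and 5 r was 0.537, and in the lower run it was 0.220. The other 4 genes had r of -0.01 (EMCN), 0.40 (ABCB1), -0.17 (VEGFC) and -0.22 (MYL9) with that mean. EMCN and CDH5, both endothelial surface proteins, had an r of 0.18, which was 0.834 in females and -0.258 in males. VEGFC and EMCN, the 2 genes with the larger differences between groups, had an r of 0.46, which was -0.17 with the means of group and sex removed. MYL9 had 0.33 with the mean of pericyte and smooth muscle genes (adjusted p = 0.796). Its other 3 probe sets had -0.22, -0.17 and -0.45 with that mean, so the sign rests on the probe set used.

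**Figure D4:**
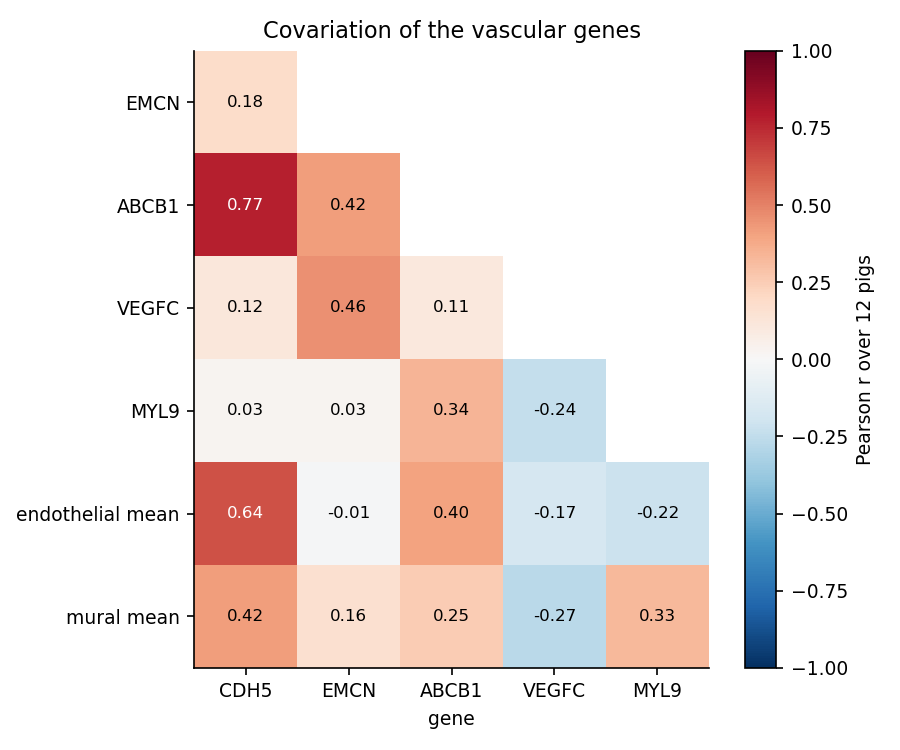
Pearson's r over 12 pigs for the 5 genes, the mean of 19 endothelial genes and the mean of 23 pericyte and smooth muscle genes, coloured from negative to positive. CDH5 with ABCB1 is highest at 0.77, CDH5 with the endothelial mean follows at 0.64, and the r of VEGFC with EMCN is 0.46.

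Gene by gene, CDH5 had a positive r with 15 of the 19, with a median of 0.23, where 49.9% of all tested genes were positive and their median was -0.002. Its median was as high with genes of other cells, 0.35 over 7 choroid plexus genes and 0.27 over 6 oligodendrocyte genes. Of the endothelial genes, the highest were CD34, a sialomucin of endothelial and progenitor cells, at 0.78, the receptor TIE1 at 0.65 and CD93 at 0.62, and EGFL7, an endothelial matrix protein, was at -0.43. With barrier genes CDH5 was positive in 9 of 14, with a median of 0.15. The lactate transporter SLC16A1 had 0.71, the efflux pump ABCG2 0.68 and the amino acid transporter SLC38A5 0.65, and SLCO1A2 had -0.34, ABCC4 -0.30 and OCLN -0.22. ABCB1 was positive with 11 of the 19 endothelial genes (57.9%), where 48.1% of all genes were positive. It had 0.78 with CD93, 0.66 with TIE1 and 0.62 with the angiopoietin receptor TEK, and -0.39 with EGFL7, -0.28 with ERG and -0.24 with ESAM. EMCN had 0.69 with CD93 and 0.65 with RGS5, and -0.59 with PECAM1. MYL9 was positive with 10 of 13 smooth muscle genes, with a median of 0.22, where 46.0% of all genes were positive. ACTA2 had 0.46 and MYH11 0.42, and MYLK had -0.31 and ACTG2 -0.12. With oligodendrocyte genes MYL9 was positive in 6 of 6, with a median of 0.47.

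The endothelial genes as a set had correlations close to those of all genes. Over 171 pairs of the 19 genes the median r was 0.03, and 55.6% of pairs were positive, where all tested genes had a median of 0.002 and 50.3% positive. Barrier genes had 0.02, pericyte genes -0.04 and smooth muscle genes 0.02. Lists of other cell types ran from values as low, 0.0004 for red blood cell genes and 0.01 for microglia genes, through 0.19 for choroid plexus, 0.20 for neuron and 0.28 for meningeal fibroblast genes, to 0.40 for astrocyte and 0.53 for oligodendrocyte genes. The endothelial, barrier, pericyte and smooth muscle lists lay near the value of all genes, as did those of microglia and red blood cells. Of the smaller vessel lists, angiopoietin and TGF-beta genes had 0.22 over 10 pairs and lymphatic markers 0.11 over 6 pairs. VEGF family genes had 0.04 over 36 pairs. The endothelial mean, in which FLI1 varied far more than genes such as ENG, ran from 5.746 to 6.002 over all pigs. It was 5.85 ± 0.07 in the low group and 5.87 ± 0.08 in the high group (SD, n = 6 each).

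The genes whose levels followed each of the 5 most closely were looked up among all tested genes. For CDH5 the 5 highest r among 12608 genes were NUFIP1 (0.90), NDUFA4L2 (0.87), MAZ (0.86), DUSP28 (0.86) and ZFP14 (0.85), and the lowest were BET1 (-0.90) and DPP10 (-0.86). For ABCB1 they were NUFIP1 (0.88), MAPRE1 (0.82), TTC26 (0.80), EDEM1 (0.80) and CD93 (0.78), with LEP (-0.89) and NPVF (-0.85) lowest. For EMCN they were LOC100512195 (0.90), HSP90AA1 (0.90), MON2 (0.87), RPL36AL (0.87) and BMPR1A (0.87), with SEZ6 (-0.92) and NCKIPSD (-0.90) lowest. CD93 is an endothelial gene of the identity list, and BMPR1A encodes a receptor for bone morphogenetic proteins.

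For VEGFC the closest were SCIN (0.85), LOC100519674 (0.84), SAA4 (0.81), THBS2 (0.80) and CDC73 (0.80), with DVL1 (-0.93) and ARMC7 (-0.84) lowest. With the means of group and sex removed, these r were 0.62, 0.63, 0.84, 0.51 and 0.51, and -0.75 and -0.69. Most were thus weaker once the difference between the groups was taken out. THBS2 encodes thrombospondin-2, a matrix protein that restrains vessel growth. For MYL9 they were B2M (0.86), ACOX2 (0.85), PPARGC-1 (0.84), RTP1 (0.82) and FBXO21 (0.82), with GFER (-0.94) and CNPY2 (-0.91) lowest. These values are descriptions over 12 pigs, picked as extremes from all genes.

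The genes that work with the 5 were also compared between the groups, from lists named by role. Of 12609 genes, each by 1 probe set, 693 (5.5%) had an unadjusted p under 0.05, 6238 were higher and 6371 lower in the low group, and the median difference was -0.0017. No gene of any list below was called after adjustment.

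The 19 endothelial identity genes were spread around no difference: 11 were higher and 8 lower in the low group, the median was 0.05 and none had an unadjusted p under 0.05. PECAM1, the adhesion molecule between endothelial cells, averaged 5.61 ± 0.60 in the low group and 6.24 ± 0.60 in the high group, a difference of -0.63 ± 0.30 (SE) with an unadjusted p of 0.0574. TEK differed by 0.20 ± 0.11, the VEGF receptor FLT1 by 0.16 ± 0.11 and the nitric oxide synthase NOS3 by -0.16 ± 0.12. The bright genes CLDN5 and ENG differed by -0.06 ± 0.11 and 0.06 ± 0.07. By sex, 14 of the 19 had lower means in females, with a median of -0.09, where 5944 of all 12609 tested genes were lower and the median was 0.007.

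Of 14 barrier genes, 10 were higher and 4 lower in the low group, with a median of 0.02 and 1 unadjusted p under 0.05. Occludin, OCLN, a tight junction protein, averaged 6.74 ± 0.26 in the low group and 6.47 ± 0.10 in the high group, a difference of 0.27 ± 0.10 (SE) with an unadjusted p of 0.0223. SLC38A5 differed by 0.36 ± 0.27, SLC16A1 by 0.09 ± 0.08 and the junction protein JAM2 by -0.16 ± 0.18. The partners of VE-cadherin in the adherens junction, 6 genes, were 3 higher and 3 lower, with CTNNB1, the beta-catenin gene, at 0.06 ± 0.06, vinculin (VCL) at -0.06 ± 0.09, plakoglobin (JUP) at -0.08 ± 0.12 and ARVCF at 0.04 ± 0.13.

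In the VEGF family, whose members steer the growth and permeability of vessels, 3 of 9 ligands, receptors and processing genes were higher and 6 lower in the low group, with VEGFC itself kept out of the count, and the median was -0.01. NRP1, a co-receptor, averaged 6.40 ± 0.18 in the low group and 6.19 ± 0.11 in the high group, a difference of 0.21 ± 0.08 (SE) with an unadjusted p of 0.0216. ADAMTS3, the protease that activates the VEGFC protein, averaged 5.03 ± 0.29 in the low group and 5.37 ± 0.25 in the high group, a difference of -0.34 ± 0.14 with an unadjusted p of 0.0327. VEGFA differed by -0.24 ± 0.18. The VEGFC receptor FLT4 was dim, with a mean of 2.63, and differed by -0.10 ± 0.09. KDR, its other receptor, differed by -0.001 ± 0.106 at a mean of 6.61.

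Among 5 angiopoietin and TGF-beta genes, 2 were higher and 3 lower. ANGPT2, a ligand that loosens the contact of endothelium and pericytes, averaged 4.50 ± 0.27 in the low group and 4.15 ± 0.11 in the high group, a difference of 0.36 ± 0.12 (SE) with an unadjusted p of 0.0131. TIE1 differed by -0.12 ± 0.10 and TGFB1 by -0.08 ± 0.11. The lymphatic markers, 4 genes, were 1 higher and 3 lower: LYVE1 at 0.26 ± 0.26 with a dim mean of 3.10, PDPN at -0.17 ± 0.13, FLT4 at -0.10 ± 0.09 and PROX1 at -0.07 ± 0.09. PROX1 and PDPN are also made by other brain cells.

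Of 10 pericyte genes, 6 were higher and 4 lower in the low group, with a median of 0.02. MCAM, an adhesion molecule of pericytes and endothelium, averaged 7.11 ± 0.22 in the low group and 7.41 ± 0.13 in the high group, a difference of -0.31 ± 0.10 (SE), with an unadjusted p of 0.0085 and an adjusted p of 0.764. RGS5 differed by 0.16 ± 0.10, FOXC1 by -0.08 ± 0.06, CSPG4 by -0.14 ± 0.12 and KCNJ8 by 0.12 ± 0.13. Of 13 smooth muscle genes, 4 were higher and 9 lower, with a median of -0.02 and no unadjusted p under 0.05. Here LMOD1 differed by -0.15 ± 0.08, CALD1 by 0.15 ± 0.09, MYH11 by -0.16 ± 0.16, DES by -0.08 ± 0.10, TAGLN by -0.08 ± 0.12, ACTA2 by -0.05 ± 0.18 and SYNM by 0.07 ± 0.09.

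The regulators of the myosin light chain showed 3 of 11 higher and 8 lower, with a median of -0.05. PPP1CB, the catalytic subunit of myosin phosphatase, differed by 0.15 ± 0.07, the kinase ROCK2 by 0.17 ± 0.09, its activator RHOA by -0.19 ± 0.10 and the heavy chain MYH9 by -0.11 ± 0.09. None had an unadjusted p under 0.05.

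**Figure D5:**
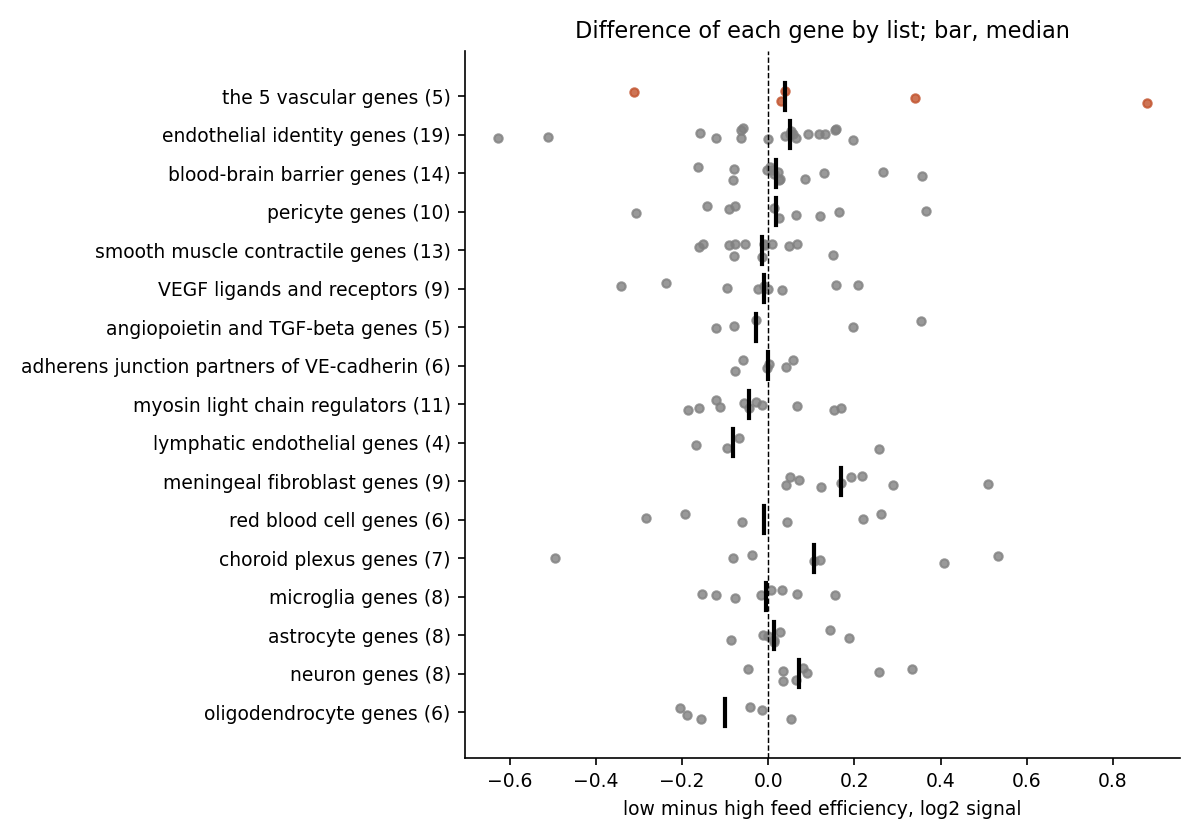
Low minus high difference in log2 signal of each gene in the lists named by role and in the 5 vascular genes, 1 point a gene, with the list's median marked. The medians of the vessel lists lie between -0.08 and 0.05, and VEGFC at 0.88 is the highest of the 5 vascular genes.

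Markers of other cells that a hypothalamus sample can hold were set beside the VEGFC result, and their part in it was not tested. All 9 meningeal fibroblast genes were higher in the low group, with a median of 0.17, where 49.5% of all tested genes were higher. Their mean was 6.83 ± 0.07 (6.72 to 6.92) in the low group and 6.64 ± 0.24 (6.46 to 7.12) in the high group (SD, n = 6 each). LUM, the matrix proteoglycan lumican, differed by 0.29 ± 0.11 (SE) with an unadjusted p of 0.0224. VEGFC had a positive r with 8 of the 9, where 49.1% of all genes were positive, with LUM highest at 0.57, and an r of 0.41 with their mean. Neuron genes were higher in the low group in 7 of 8 cases, beside the same 49.5% of all tested genes. Their mean was 9.08 ± 0.08 in the low group and 8.98 ± 0.07 in the high group. It had an r of 0.54 with VEGFC. Choroid plexus genes were 4 higher and 3 lower, with TTR at 0.53 ± 0.41, KCNJ13 at 0.41 ± 0.16 and STEAP1 at -0.49 ± 0.18 (SE). STEAP1 had an r of -0.72 with VEGFC, and the mean of the choroid plexus genes had -0.09. Red blood cell genes were 3 higher and 3 lower. Among other list means, r with VEGFC was -0.47 (microglia), -0.40 (smooth muscle), -0.23 (red blood cells), -0.16 (oligodendrocytes) and 0.03 (astrocytes). Over all single genes, r with VEGFC ran from -0.50 to 0.47 between the 5th and 95th percentiles. All these r were taken over 12 pigs with the group difference left in. For these lists, r with the group means removed was not computed.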

How the data were processed

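RNA of the hypothalamus of 12 pigs was measured with 1 array a pig. The authors deposited 1 value per probe set and array, taken as log2 signal because the values ran from 0.3814 to 14.1635; the log base was read from the range, not from a statement. GCOS 1.1.1 is named in the submitters' processing notes. For background correction and normalization, no method is stated in the sources used here. Array medians lay between 4.35 and 4.42.

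From the 47845 rows, 123 control rows and the 25% dimmest probe sets (mean under 2.43) were left out. Of all rows, 26426 had 1 gene symbol and 21419 had none. The remaining 35791 probe sets were tested with limma 3.58.1 in R 4.3.3 (lmFit, eBayes), with group and sex as terms, and a second model with their interaction. Adjusted p is Benjamini-Hochberg over all tested probe sets. A gene's brightest probe set stands for it. Single values had an exact permutation within sex, and correlations a permutation with 100000 resamples, adjusted over 20 relations. Scripts were tested on simulated data.

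The genes, lists and tests were chosen with earlier results of these data known. Named are all 5 genes, 4 genes of each vessel list by smallest unadjusted p, and the 3 brightest endothelial, pericyte and smooth muscle genes. For each of the 5 genes the 5 highest and 2 lowest r are named. Of the lists of other cells, only the meningeal list had all 4 named. No microglia or astrocyte gene was named for its group difference. KDR and other list genes were also named for their role or their r with a member after their values were seen. Nothing says that the pigs of a group came from separate litters, so p-values measure the spread between these pigs. Alternatives were quantile normalization, equal array medians, no filter, a 50% filter, no sex term, the run of identifiers as a term, array weights, trend and robust eBayes settings, means over probe sets and leaving out each pig. Listed symbols with no match to a tested probe set, such as PDGFRB and NOTCH3, were not analysed here.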

Additional observations from a re-analysis of the deposited data

Results flagged for a closer look

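Among 28 groups of 6 pigs looked at, 3 held a pig far from the others by Dixon's rule, which chance alone flags in about 1 group in 20. For the brightest MYL9 probe set, low pig 4 had 4.692, against 5.528 in the nearest low pig. For the same probe set, high pig 1 had 6.2313, against 5.8776 in the nearest high pig. For VEGFC, high pig 4 had 3.0329, against 2.5414 in the nearest high pig.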

How the results depend on the processing

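The differences of EMCN and VEGFC between low and high feed efficiency kept their sign, and stayed past no adjusted threshold, under each alternative that gave a value. The 50% filter, with its limit of 4.36, left EMCN and VEGFC untested. The array had 0 probe sets called, and leaving out each pig gave 0 to 1, with 1 without low pig 2 (adjusted p 0.0328). The relations called were 0, and leaving out each pig gave 0 to 1, with 1 without low pig 2 and 1 without high pig 2. Some small values changed sign when a pig was left out. The low minus high difference then ran from -0.0291 to 0.0892 for CDH5 and -0.0093 to 0.075 for ABCB1. Female minus male ran from -0.0619 to 0.12 for EMCN and -0.18 to 0.0348 for VEGFC. The interaction ran from -0.25 to 0.17 for EMCN, -0.0725 to 0.12 for ABCB1 and -0.48 to 0.10 for MYL9, and with equal array medians it was -0.0188 for ABCB1. Correlations ran from -0.14 to 0.36 for CDH5 with EMCN, -0.0859 to 0.31 for CDH5 with VEGFC, -0.10 to 0.10 for CDH5 with MYL9, -0.21 to 0.28 for EMCN with MYL9 and -0.0069 to 0.19 for ABCB1 with VEGFC. With the endothelial mean they ran from -0.33 to 0.28 for EMCN, -0.39 to 0.084 for VEGFC and -0.29 to 0.0894 for MYL9. With group and sex means removed, r became -0.10 for CDH5 with MYL9, -0.17 for EMCN with VEGFC, -0.0684 for ABCB1 with VEGFC, 0.14 for VEGFC with MYL9, and 0.21 for EMCN and 0.22 for VEGFC with the endothelial mean. Equal array medians gave -0.003 for CDH5 with MYL9 and 0.0474 for EMCN with the endothelial mean, and quantile normalization gave -0.0093 for EMCN with MYL9. With the mean of a gene's probe sets, MYL9 had -0.0564 with CDH5, -0.21 with EMCN, -0.0412 with ABCB1, 0.0021 with the endothelial mean and -0.11 with the pericyte and smooth muscle mean. The cause of these changes was not tested. No paired analysis was possible because replicate numbers follow the order of the samples and pair no pigs. VEGFC, the second probe sets of EMCN and ABCB1 and the dimmest of MYL9 lie near background, which limits what their signals show.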

Other observations

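Other cell types in the same tissue gave the following values between low and high feed efficiency, none of them called. All 9 meningeal fibroblast genes were higher in the low group, with COL1A1, a collagen chain, at 0.51 ± 0.34, COL3A1 at 0.22 ± 0.14 and PDGFRA at 0.12 ± 0.11 (SE). ELAVL4, a neuronal RNA-binding protein, had 0.33 ± 0.12 with an unadjusted p of 0.0145, the smallest among the 8 listed neuron genes. Of the oligodendrocyte genes, 1 was higher and 5 were lower in the low group, with a median of -0.10: CNP had -0.21 ± 0.12, MOG had -0.19 ± 0.10 and MAG had -0.16 ± 0.11. Among choroid plexus genes, the channel KCNJ13 had 0.41 ± 0.16 and STEAP1 had -0.49 ± 0.18, in opposite directions. Of the red blood cell genes, HEMGN had -0.28 ± 0.15, HBM had -0.19 ± 0.10 and HBB had 0.26 ± 0.27.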
